A study of Mus musculus with 4 samples.

Results

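The 61 genes described here carry the names of the homeobox, Sox, forkhead, T-box, Krüppel-like, Sp and basic helix-loop-helix families that pattern the developing forebrain. They were taken by name from the 5282 rows of the authors' deposited table, whatever their level. 6 genes with such names, Foxc1, Foxc2, Nkx6-2, Dlx1, Hes5 and Bhlhe40, were left out. 57 of the 61 encode transcription factors, and 4 (Sox1ot, Sox2ot, Emx2os and Six3os1) are noncoding transcripts that lie across or beside a factor gene. RNA came from mouse cortex dissected together with corpus callosum on postnatal day 15. 2 samples were Pdgfra-creER;SmoM2, in which a tamoxifen-inducible recombinase driven by Pdgfra switches on SmoM2, a constitutively active Smoothened. The other 2 samples were wild type (WT). Tamoxifen was injected on postnatal days 5 to 7 in both groups. Pdgfra is expressed by oligodendrocyte precursor cells and also by fibroblasts, so recombination in fibroblasts of the meninges is possible by the design of the allele. Whether each sample is 1 animal is not stated in the labels, so p-values measure the spread between these samples only, which may be technical. The table lists only genes with an unadjusted p of at most 0.05, so each gene below was selected by the authors for a difference on these same 4 samples. Family members without a row were not analysed here.

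Transcription factors of these families act in layers. Early factors such as Sox2 and Lhx2 keep neural progenitors dividing, later ones such as Neurod6 and Cux2 fix the identity of cortical projection neurons, and Dlx, Lhx8 and Sp9 do so for inhibitory and cholinergic neurons born in the ventral forebrain. Sox and Nfi proteins also act within the oligodendrocyte and astrocyte lineages. Members of the same families are used outside the neural tissue, Foxd1 and Tbx15 in mesenchyme and Sox17, Sox18 and Klf2 in endothelium, and others are confined to small territories, such as Otx2 in choroid plexus. In RNA of whole tissue, fewer cells of a type and less RNA per cell cannot be told apart.

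Most of the 61 genes were higher in SmoM2. 50 had a log2 fold change above 0 in the authors' deposited table and 11 had one below 0, whereas 53.2% of all listed genes were higher and 46.8% were lower. Rose, fell and changed are said of genes whose adjusted p in that table does not exceed 0.05. By this rule 20 of the 61 rose, against 21.3% of all listed genes, and 5 fell, against 16% of all listed genes. Together 25 changed, which is 41% of the 61 and near the 37.3% of all listed genes that changed. Rises and falls counted in the lists below, markers included, stand beside the same shares of 21.3% and 16%. The median log2 fold change was 0.58 for the 61 genes and 0.23 for all 5282, in a table where no unselected gene stands for comparison. The 5 genes that fell were Prox1, Neurod6, Klf9, Foxp1 and Nfib. 10 of the genes that rose, which is 16.4% of the 61, had a log2 fold change of at least 1 in size, against 4.32% of all listed genes. 0 of those that fell had one that large, against 2.31% of all listed genes. The 61 were also lower in level, with a median mean level of 5.23, against 18.3 for all listed genes. The part of low levels in these larger fold changes was not tested. The groups of levels did not overlap for 56 of the 61 genes, and for 84.7% of all listed genes. 46 of these were higher and 10 lower in SmoM2, against 49.5% and 35.2% of all listed genes. The 5 genes with overlapping groups were Sp8, Foxp1, Tbx21, Heyl and Sox18.

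**Figure D1:**
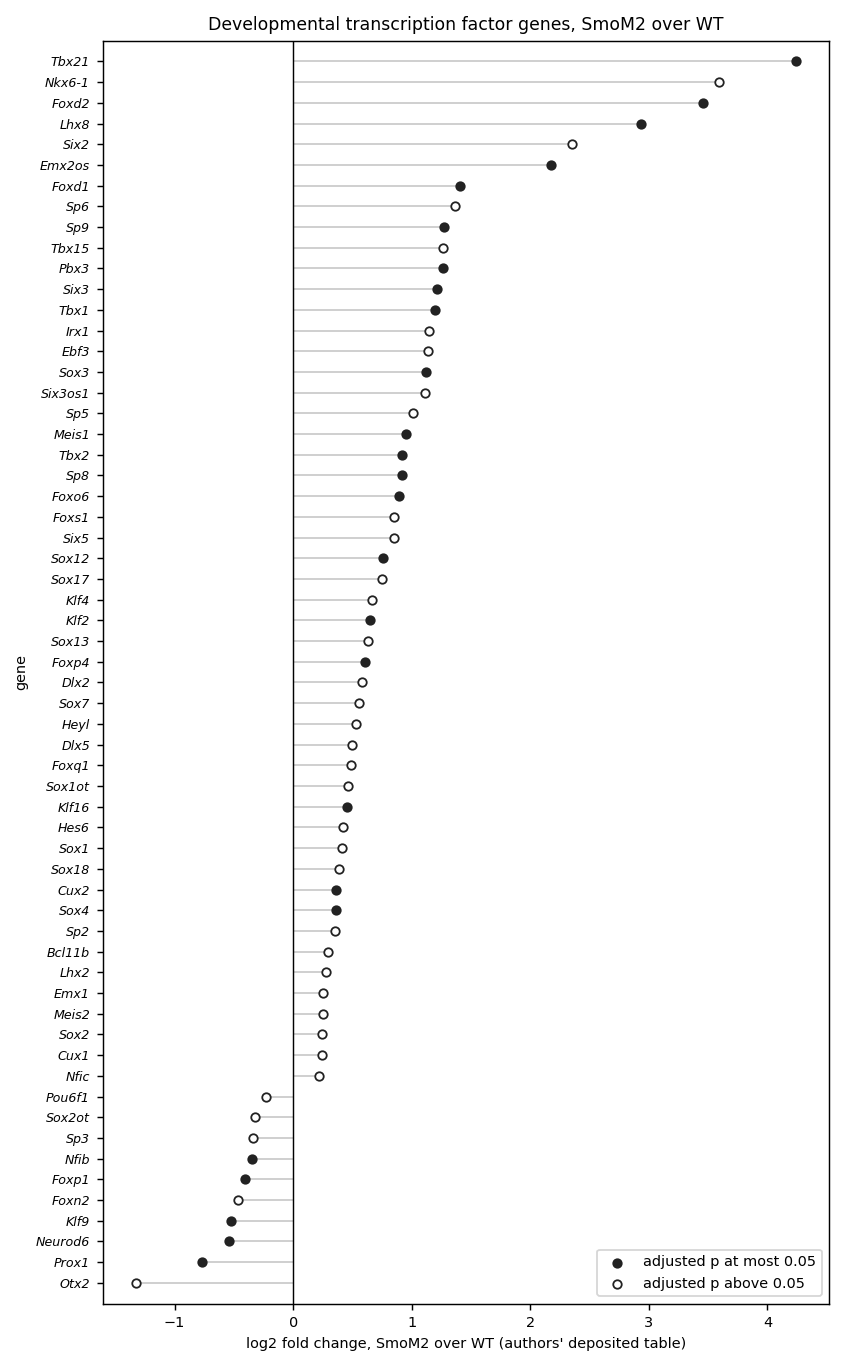
Log2 fold change of SmoM2 over WT from the authors' deposited table (x axis) for 60 of the 61 genes (y axis); filled circles mark the 25 genes that changed and open circles the others. 50 genes lie right of 0 and 10 left of it, from -1.33 for Otx2 to 4.24 for Tbx21.

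The levels in the table, whose scaling is not stated, gave a more cautious picture. limma on log2(level + 1), with p-values adjusted over the 57010 tests that the authors' adjusted p implies, passed 0 of the 51 genes that averaged at least 1. It passed 6 of all 4845 genes fitted. At an unadjusted p under 0.05 limma had 29 of the 51 genes, 56.9%, and 55.5% of all genes fitted, and the lowest adjusted p among the 51 was 0.167, for Foxo6. The calls therefore rest on the authors' own test. The direction of the levels was the same as that of the authors' fold change for all 61 genes, and not the same for only 77 of all 5282. Both come from the same 4 samples, so this is not separate support. Log2 differences below are on the log2(level + 1) scale with the standard error (SE) from limma, and this scale understates the change of low genes. Levels were tilted towards SmoM2 among all listed genes, with a median log2 difference of 0.25, and of 0.13 after quantile normalization. The median of the 51 genes was 0.44 as deposited, 0.19 above that of all genes, and 0.34 after quantile normalization, 0.21 above. Expression spanned a wide range, from a mean level of 0.105 for Nkx6-1 to 98.4 for Neurod6, and 10 of the 61 genes had a mean level below 1.

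**Figure D2:**
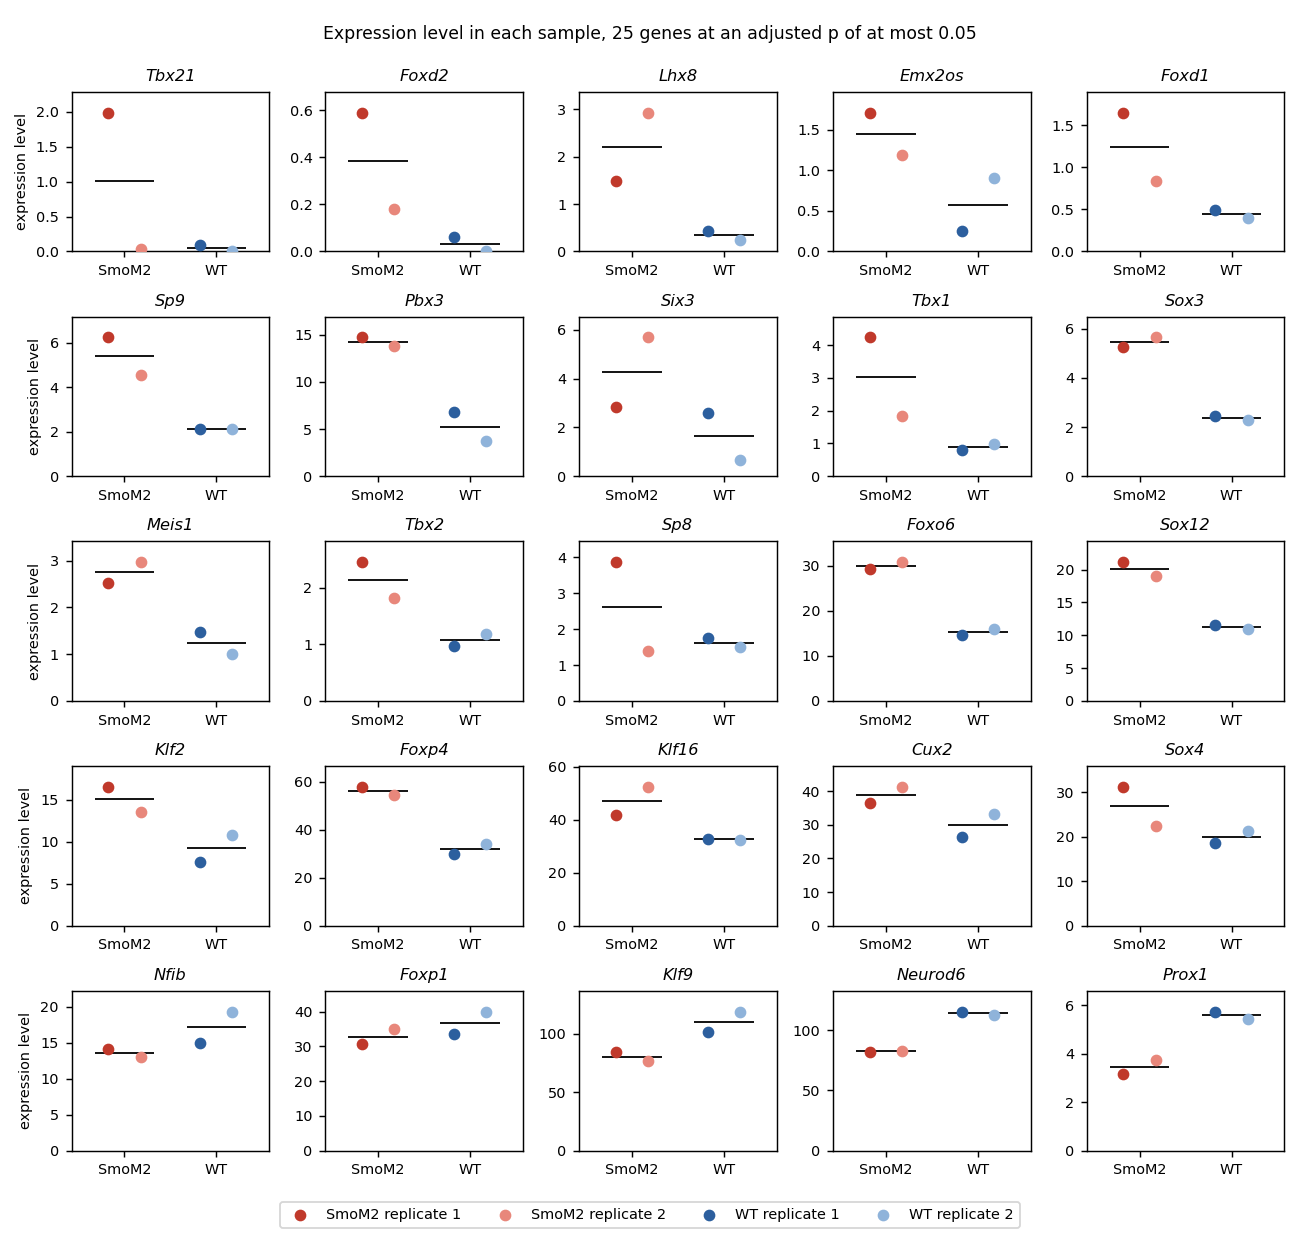
Expression level (y axis, from 0) in each of the 4 samples for the 25 genes that changed, in order of log2 fold change; points are single samples, SmoM2 left and WT right, and horizontal bars are group means. Foxo6, Foxp4, Sox12, Sox3 and Neurod6 have their 2 samples of a group close together, whereas Tbx21 and Sp8 are high in SmoM2 replicate 1 alone.

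Factors of interneurons and the basal forebrain were mostly higher in SmoM2. Of 30 genes listed for it, 16 had a row, 10 of them among the 61. 10 of the 16 rose and 2 fell, against 21.3% and 16% of all listed genes. The median of the 16 in the authors' deposited table was 0.65 (log2 fold change), against 0.23 for all listed genes. Slc32a1, the vesicular transporter gene of inhibitory neurons, rose with them, at 81.67 and 100.53 in SmoM2, against 53.37 and 51.92 in WT. It is on the cortical neuron marker list, where 5 of 10 genes had a row, 2 rose and 3 fell. Of the olfactory bulb markers 7 of the 8 with a row rose, and of the striatal markers all 3 with a row. The part of these cells and regions in the group was not tested. Pbx3, a TALE homeodomain partner of Meis and Hox proteins (chromosome 2, 34171457 to 34373142, GRCm38), had levels of 14.71 and 13.80 in SmoM2, against 6.82 and 3.71 in WT. Both SmoM2 samples were above both WT samples, and the WT samples lay further apart than the SmoM2 samples. Its log2 difference was 1.33 ± 0.25 (SE), and the authors' deposited table has adjusted p = 2.98e-10. Sp9, a zinc finger factor of newborn interneurons, had levels of 6.24 and 4.56 in SmoM2, against 2.13 and 2.13 in WT (log2 difference 1.02 ± 0.21, SE). Lhx8, a LIM homeodomain factor needed by forebrain cholinergic neurons, had levels of 1.49 and 2.93 in SmoM2, against 0.44 and 0.24 in WT. Lhx8 was low in all samples, and both SmoM2 values were above both WT values, with a log2 difference of 1.23 ± 0.32 (SE). Meis1, another TALE homeodomain gene, had levels of 2.53 and 2.97 in SmoM2, against 1.47 and 1.01 in WT. Its relative Meis2, the most abundant of the 10 among the 61, did not pass, with 81.32 and 55.39 in SmoM2, against 49.55 and 48.37 in WT. Without SmoM2 replicate 1 the log2 difference of Meis2 went from 0.45 to 0.17, and without SmoM2 replicate 2 to 0.72.

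The distal-less genes Dlx2 and Dlx5, which switch on the inhibitory neuron programme, were higher in both SmoM2 samples without passing. Dlx2 had levels of 12.01 and 8.24 in SmoM2, against 5.54 and 7.29 in WT, and adjusted p = 0.0549 according to the authors' deposited table. Dlx5 had 12.21 and 11.60 in SmoM2, against 8.99 and 6.91 in WT, with a log2 difference of 0.54 ± 0.17 (SE). Without SmoM2 replicate 1 the log2 difference of Dlx2 went from 0.57 to 0.33. Among listed genes of the same group outside the 61, Nr2f1, Nr2f2 and Tshz1 were among those that rose, and Etv1 fell. Tshz1 was high in SmoM2 replicate 1, with 17.20 and 9.73 in SmoM2, against 6.86 and 8.53 in WT. Nr2f2, a nuclear receptor of caudally derived interneurons that is also on the meningeal list, had levels of 16.27 and 20.06 in SmoM2, against 7.26 and 6.26 in WT. Prox1, a homeodomain factor of caudally derived interneurons and of dentate granule cells, fell. It had levels of 3.16 and 3.75 in SmoM2, against 5.73 and 5.42 in WT (log2 difference -0.56 ± 0.18, SE), with adjusted p = 1.22e-05 according to the authors' deposited table. The Prox1 groups stood apart, and its fall was the opposite of the direction of Pbx3, Sp9 and Lhx8. Prox1 is also on the hippocampal marker list, where 6 of 10 genes had a row, 5 were lower and 2 fell. Summed over those 6 genes the level was 80.01 and 88.45 in SmoM2, against 74.53 and 62.92 in WT, a sum dominated by Wfs1, which rose. The part of hippocampal tissue in the fall of Prox1 was not tested.

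Hedgehog signalling acts on transcription through the GLI zinc finger proteins, which bind the sequence GACCACCCA. RefSeq promoter windows (GRCm38.p6, 250 bases before to 50 after a start) were at hand for 41 of the 61 genes, 56 windows in all. The 9-base GLI sequence was searched on both strands and was in 0 of these 56 windows, and in 0.253% of all 32851 windows. Its 7-base core CCACCCA, part of the same motif, was in 4 of the 56 windows, 7.14%, and in 9.30% of all windows. The 9-base GC box GGGGCGGGG, a sequence bound by Sp and Krüppel-like factors, was in 11 of the 56, 19.6%, and in 11.4% of all windows. A match describes letters and not a bound site. The 4 genes with the core were Sp9, which rose, Klf2, which rose, and Lhx2 and Bcl11b, which were higher in both SmoM2 samples without passing. Their 250 bases before the start are shown with the core, or its reverse complement, in capitals, to place it in each promoter. It begins 160 bases before the start of Sp9, 55 before the upstream start of Lhx2, 20 before that of Klf2 and 200 before that of Bcl11b.
Sp9, chr2:73271676-73271925, plus strand: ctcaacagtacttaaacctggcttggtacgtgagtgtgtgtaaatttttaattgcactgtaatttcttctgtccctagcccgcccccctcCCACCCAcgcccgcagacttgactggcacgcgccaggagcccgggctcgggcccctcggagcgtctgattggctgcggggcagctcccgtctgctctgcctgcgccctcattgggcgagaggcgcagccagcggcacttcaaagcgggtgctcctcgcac
Lhx2, chr2:38339031-38339280, plus strand: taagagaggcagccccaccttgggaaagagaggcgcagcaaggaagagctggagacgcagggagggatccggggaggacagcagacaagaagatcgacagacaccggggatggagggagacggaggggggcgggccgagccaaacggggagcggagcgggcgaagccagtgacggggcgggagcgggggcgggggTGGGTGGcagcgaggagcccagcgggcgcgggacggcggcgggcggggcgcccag
Klf2, chr8:72318812-72319061, plus strand: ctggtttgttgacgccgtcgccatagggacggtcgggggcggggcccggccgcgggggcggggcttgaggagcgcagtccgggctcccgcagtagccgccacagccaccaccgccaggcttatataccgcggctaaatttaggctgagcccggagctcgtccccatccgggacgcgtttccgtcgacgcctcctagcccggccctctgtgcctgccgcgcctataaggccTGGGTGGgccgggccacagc
Bcl11b, chr12:108003415-108003664, minus strand: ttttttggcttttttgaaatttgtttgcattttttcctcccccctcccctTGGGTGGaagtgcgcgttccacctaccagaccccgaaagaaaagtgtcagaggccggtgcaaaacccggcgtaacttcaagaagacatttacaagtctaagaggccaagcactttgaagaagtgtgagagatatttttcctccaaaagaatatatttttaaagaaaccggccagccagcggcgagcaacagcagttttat

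Factors of cortical projection neurons moved both ways. Of 32 genes listed for it, 13 had a row, 9 of them among the 61. 2 of the 13 rose and 5 fell, against 21.3% and 16% of all listed genes. The median of the 13 in the authors' deposited table was -0.26 (log2 fold change), against 0.23 for all listed genes. Neurod6, a basic helix-loop-helix gene of differentiating excitatory neurons (chromosome 6, 55677822 to 55681263, GRCm38) with the highest mean level of the 61, had 82.12 and 83.12 in SmoM2, against 115.46 and 113.03 in WT. Its replicates lay within a few units of each other in both groups. The log2 difference was -0.46 ± 0.08 (SE), with adjusted p = 5.07e-05 according to the authors' deposited table. Foxp1, a forkhead factor of upper and middle cortical layers and of striatum, had levels of 30.60 and 35.11 in SmoM2, against 33.50 and 40.02 in WT. The groups of Foxp1 overlapped although it fell by the authors' test, and every left-out library moved its log2 difference of -0.16 by more than 1.5 times. It was -0.06 without SmoM2 replicate 1, -0.25 without SmoM2 replicate 2, -0.28 without WT replicate 1 and -0.03 without WT replicate 2.

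In contrast to Neurod6, the upper-layer factor Cux2 rose. Cux2, a cut-domain homeobox gene, had levels of 36.39 and 41.26 in SmoM2, against 26.43 and 33.19 in WT (log2 difference 0.38 ± 0.14, SE), a difference that went to 0.22 without WT replicate 1. Cux1, its paralogue, had 57.33 and 64.94 in SmoM2, against 45.21 and 52.22 in WT, and did not pass. Emx1, a homeobox gene of the dorsal telencephalon, had 39.15 and 43.82 in SmoM2, against 31.79 and 35.50 in WT, and did not pass either. For all 3 genes both SmoM2 samples were above both WT samples. Bcl11b, also called Ctip2 and needed by deep-layer corticospinal neurons and by striatal neurons, had tight replicates, with 21.56 and 21.19 in SmoM2, against 14.24 and 13.99 in WT. Its log2 difference from the levels was 0.57 ± 0.12 (SE), with adjusted p = 0.333 by limma. The authors' deposited table has it at 0.30 (log2 fold change, adjusted p = 0.131). Among listed genes outside the 61, Lmo4 and Mef2c fell, and the groups of Mef2c overlapped. Eomes rose through 1 library, with 2.87 and 0.13 in SmoM2, against 0.77 and 0.15 in WT. Pou6f1, a POU-domain gene of the brain, was abundant and lower without passing, at 74.33 and 65.97 in SmoM2, against 78.82 and 80.91 in WT.

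Sox genes were mostly higher. 11 names of the family, the noncoding Sox1ot and Sox2ot included, were among the 61. 10 of the 11 were higher, against 53.2% of all listed genes. 3 of the 11 rose, Sox12, Sox3 and Sox4, a share near the 21.3% of all listed genes. Sox12, a SoxC factor related to Sox4 and Sox11 (chromosome 2, 152393611 to 152398063, GRCm38), had levels of 21.13 and 19.04 in SmoM2, against 11.53 and 11.00 in WT. The groups were far apart relative to their spread, with a log2 difference of 0.78 ± 0.13 (SE) and adjusted p = 3.57e-08 according to the authors' deposited table. Sox3, an X-linked SoxB1 factor of neural progenitors that also acts in oligodendrocyte development, had 5.27 and 5.65 in SmoM2, against 2.46 and 2.28 in WT. Its log2 difference was 0.94 ± 0.18 (SE), and leaving out any library kept it between 0.90 and 0.98. Sox4, a SoxC factor of immature neurons and precursors, had 31.26 and 22.53 in SmoM2, against 18.63 and 21.33 in WT. The second SmoM2 sample was only just above the WT samples. Leaving out SmoM2 replicate 1 took the log2 difference of Sox4 from 0.40 to 0.17, and leaving out SmoM2 replicate 2 took it to 0.62. The other SoxB1 genes, Sox2 and Sox1, were above WT in both SmoM2 samples without passing, and Sox2 stood at 36.59 and 33.24 in SmoM2, against 27.43 and 28.59 in WT.

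Within the oligodendrocyte lineage list, 12 of 27 genes had a row and 7 of them belonged to the 61. 3 of the 12 rose, namely Sox4, Sox3 and Carm1, and 3 fell, namely Nfib, Klf9 and Myrf. The share of rises was near the 21.3% of all listed genes, of which 16% fell. Klf9, a thyroid hormone-induced Krüppel-like factor of maturing neurons and oligodendrocytes, had levels of 84.08 and 76.98 in SmoM2, against 101.26 and 118.96 in WT. Both SmoM2 samples were below both WT samples, with a log2 difference of -0.44 ± 0.11 (SE) and adjusted p = 1.78e-05 according to the authors' deposited table. Nfib, a nuclear factor I gene that promotes glial differentiation, had 14.18 and 12.97 in SmoM2, against 14.95 and 19.32 in WT. Its log2 difference of -0.31 ± 0.16 (SE) went to -0.13 without WT replicate 2 and to -0.48 without WT replicate 1. Nfic, of the same family, was higher without passing, at 34.01 and 32.44 in SmoM2, against 23.86 and 28.35 in WT. Sox13, a SoxD factor of the oligodendrocyte lineage, had 7.93 and 6.72 in SmoM2, against 4.44 and 3.66 in WT (adjusted p = 0.0544, authors' deposited table). The 12 markers of myelinating oligodendrocytes all fell, with a summed level of 3058 and 3449 in SmoM2, against 6400 and 6014 in WT. Mbp made up most of that sum. Of 12 precursor markers 8 had a row, of which 3 rose and Tnr fell, with a sum of 652.8 and 627.4 in SmoM2, against 498.9 and 488.7 in WT. Cspg5, which rose, made up most of the precursor sum, with 414.94 and 407.33 in SmoM2, against 317.16 and 306.48 in WT. The part of these cell types in the levels of Klf9, Nfib and the Sox genes was not tested.

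Among factors of progenitors and astrocytes, 7 of 25 listed genes had a row and 6 of them were among the 61. None of the 7 rose and Nfib fell, against 21.3% and 16% of all listed genes. Lhx2, a LIM homeodomain factor that maintains cortical progenitors, had levels of 56.04 and 59.46 in SmoM2, against 43.28 and 41.24 in WT. Hes6, a helix-loop-helix gene that opposes Hes1 and favours neuronal differentiation, had 26.87 and 27.18 in SmoM2, against 18.85 and 19.41 in WT. For both genes the gap between the groups exceeded the spread within them, with log2 differences of 0.44 ± 0.10 for Lhx2 and 0.48 ± 0.11 for Hes6 (SE). The authors' deposited table gives them adjusted p-values of 0.183 and 0.190, and limma gave 0.362 and 0.384. Groups did not overlap for 84.7% of all listed genes, each selected on these same samples, so the gap is not separate support. Of 10 astrocyte markers 6 had a row, 2 rose and 2 fell, so that this list had no common direction.

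The rises of 2 forkhead genes, Foxo6 and Foxp4, lay far outside the spread between replicates. Foxo6, a brain-enriched FoxO factor of the insulin pathway (chromosome 4, 120267079 to 120287349, GRCm38), had levels of 29.21 and 30.78 in SmoM2, against 14.63 and 16.03 in WT. Its log2 difference was 0.93 ± 0.12 (SE), with adjusted p = 3.68e-10 according to the authors' deposited table. Foxp4, a forkhead repressor (chromosome 17, 47867133 to 47924645, GRCm38), had 57.88 and 54.60 in SmoM2, against 29.72 and 33.99 in WT. Its log2 difference was 0.80 ± 0.11 (SE), with adjusted p = 1.20e-05 according to the authors' deposited table. In both genes the groups stood far apart, and no left-out library moved the difference by more than 1.5 times. Foxp4 and Foxp1 are paralogues, and the first rose while the second fell. Of 16 forkhead genes listed under growth and metabolism, a list that took in Foxp4, 3 had a row. The other, Foxn2, was lower without passing, at 2.88 and 3.48 in SmoM2, against 4.42 and 3.53 in WT.

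Krüppel-like and Sp genes had 10 of 25 listed members in the table, all among the 61. 4 of the 10 rose (Klf16, Klf2, Sp8 and Sp9) and Klf9 fell, against 21.3% and 16% of all listed genes. Klf16, a zinc finger factor that binds GC-rich promoters, had levels of 41.79 and 52.43 in SmoM2, against 32.72 and 32.45 in WT (log2 difference 0.51 ± 0.13, SE). The WT samples were almost equal, and both SmoM2 samples lay above them. Sp2, Sp5 and Sp6 were higher in both SmoM2 samples without passing. Sp5, a target of Wnt signalling, had 1.64 and 1.05 in SmoM2, against 0.68 and 0.58 in WT. Sp6 had 0.97 and 0.68 in SmoM2, against 0.30 and 0.32 in WT, and lies between Sp2 and Tbx21 on chromosome 11, 30.4 kb from the first and 73.3 kb from the second. Sp3, a ubiquitous factor, was lower without passing, at 13.03 and 12.04 in SmoM2, against 13.50 and 15.85 in WT.

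Factors of the meninges and of mural cells were mostly higher, at low levels. Of 32 genes listed, 13 had a row, 10 of them among the 61. 5 of the 13 rose (Foxd1, Tbx2, Meis1, Nr2f2 and Alx4) and Foxp1 fell, against 21.3% and 16% of all listed genes. The groups of Alx4 overlapped, with 1.26 and 0.36 in SmoM2, against 0.42 and 0.23 in WT. Foxd1, a forkhead factor of stromal and perivascular precursors, had levels of 1.65 and 0.84 in SmoM2, against 0.49 and 0.40 in WT. Foxd2, a related mesenchymal factor not on the list, had 0.59 and 0.18 in SmoM2, and 0.06 in WT replicate 1, and was listed at 0 in WT replicate 2. SmoM2 replicate 1 was the highest sample for both. Without it the log2 difference went from 0.61 to 0.35 for Foxd1 and from 0.41 to 0.20 for Foxd2, and without SmoM2 replicate 2 that of Foxd2 went to 0.63. Tbx2, a T-box repressor, had 2.45 and 1.82 in SmoM2, against 0.97 and 1.18 in WT, and rose. Tbx1, a T-box factor of pharyngeal mesoderm and of vessels that is not on the list either, rose too, with 4.24 and 1.84 in SmoM2, against 0.80 and 0.99 in WT. Its log2 difference went from 1.03 to 0.59 without SmoM2 replicate 1. Tbx15, Six2, Six5 and Foxs1 did not pass, although both SmoM2 samples were above both WT samples. The authors' deposited table has them between 0.85 and 2.36 (log2 fold change). Heyl, a Notch target of mural cells, had overlapping groups, at 6.40 and 4.10 in SmoM2, against 4.39 and 3.33 in WT.

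Markers of meningeal fibroblasts rose alongside. Of 12 markers, 11 had a row, and each of the 11 rose. Their summed level was 1896 and 1944 in SmoM2, against 1052 and 425.5 in WT. Ptgds made up most of this sum. Col1a1, a fibrillar collagen gene, had levels of 14.36 and 7.42 in SmoM2, against 2.34 and 2.03 in WT, with SmoM2 replicate 1 highest, whereas Ptgds, Dcn and Aldh1a2 were highest in SmoM2 replicate 2 and the groups of Col3a1 overlapped. Among 9 markers of pericytes and smooth muscle 5 had a row and 3 of these rose (Acta2, Notch3 and Vtn). Pdgfrb and Myh11 did not pass, and their groups overlapped. The 5 together had a level of 135.9 and 112.9 in SmoM2, against 72.68 and 55.87 in WT. Vtn made up most of this sum, with 102.99 and 86.42 in SmoM2, against 55.86 and 36.27 in WT. The part of meningeal or mural cells in the values of these factors was not tested. Lum and 4 of the mural markers had no row and were not analysed here.

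Endothelial factors were higher in all 7 of 20 listed genes with a row, 6 of them among the 61, against 53.2% of all listed genes. Only 1 of the 7 rose, against 21.3% of all listed genes. That gene was Klf2, a factor induced by blood flow, with 16.50 and 13.53 in SmoM2, against 7.55 and 10.83 in WT (log2 difference 0.66 ± 0.20, SE), a difference that went to 0.43 without WT replicate 1. Sox17, Sox18 and Sox7, the SoxF factors of vessel growth, did not pass. Sox17 had levels of 9.82 and 8.91 in SmoM2, against 4.01 and 6.24 in WT (adjusted p = 0.0648, authors' deposited table). Sox18 had 24.66 and 16.51 in SmoM2, against 16.88 and 12.96 in WT, and its groups overlapped. Klf4 and Foxq1, also expressed by brain endothelium, were higher in both SmoM2 samples, with log2 differences of 0.55 ± 0.26 and 0.42 ± 0.20 (SE). Leaving out SmoM2 replicate 1 took the log2 difference of Sox18 from 0.42 to 0.15 and that of Klf4 from 0.55 to 0.33. Of 10 endothelial markers 7 had a row, and these split, as Cldn5, Cdh5 and Kdr rose and Slco1a4, Ly6c1 and Ly6a fell. Cdh5, the vascular cadherin gene, had 11.95 and 8.29 in SmoM2, against 5.58 and 6.62 in WT. Of 7 blood markers 5 had a row and all 5 fell, to a summed level of 65.64 and 120.4 in SmoM2, against 661.7 and 449.8 in WT. The part of endothelial cells or of blood in the values of these factors was not tested.

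Some factors were high in 1 library. Tbx21, a T-box gene of olfactory bulb projection neurons and of T cells, had levels of 1.99 and 0.03 in SmoM2, and 0.09 in WT replicate 1, and was listed at 0 in WT replicate 2. Its groups overlapped, although the authors' deposited table has it at 4.24 (log2 fold change, adjusted p = 7.24e-07). Without SmoM2 replicate 1 its log2 difference went from 0.75 to -0.02. Sp8, a zinc finger factor of olfactory bulb interneurons, had 3.86 and 1.39 in SmoM2, against 1.76 and 1.49 in WT, and its log2 difference went from 0.38 to -0.13 without the same library. Without SmoM2 replicate 2 these differences went to 1.52 for Tbx21 and 0.89 for Sp8. Doc2g, an olfactory bulb marker of mitral and tufted cells, was highest in the same library, with 21.44 and 3.93 in SmoM2, against 2.44 and 2.55 in WT. Of 10 olfactory bulb markers 8 had a row and 7 rose, Sp8 itself among them, and their summed level was 195.9 and 134.3 in SmoM2, against 89.20 and 70.50 in WT. Calb2, also on the thalamic marker list, made up most of this sum, with 122.72 and 107.63 in SmoM2, against 70.04 and 52.54 in WT. Cdhr1, Eomes and Th were, like Doc2g, far higher in SmoM2 replicate 1 than in SmoM2 replicate 2. Trh and Tpbgl were nearly even between these libraries, with 7.04 and 6.97 for Trh and 4.34 and 4.01 for Tpbgl. The part of olfactory bulb tissue in the rise of Tbx21 and Sp8 was not tested.

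Six3, Six3os1 and Lhx8 were instead highest in SmoM2 replicate 2. Six3, a homeobox factor of the anterior forebrain and of striatal neurons, had levels of 2.85 and 5.69 in SmoM2, against 2.59 and 0.67 in WT. The lower SmoM2 sample was close to the higher WT sample, and the log2 difference of 1.05 ± 0.44 (SE) was 0.65 when SmoM2 replicate 2 was left out. It was 0.50 without WT replicate 2 and 1.60 without WT replicate 1. 3 of 10 striatal markers, Adora2a, Penk and Gpr6, had a row and rose, and their summed level was 141.3 and 279.6 in SmoM2, against 186.7 and 82.17 in WT. Penk made up most of that sum. SmoM2 replicate 2 was highest and WT replicate 2 lowest for the sum as for Six3. Adora2a, the adenosine receptor gene of striatal projection neurons, had 17.98 and 51.62 in SmoM2, against 28.09 and 12.92 in WT, so its groups overlapped. The part of striatal tissue in the values of Six3 and Lhx8 was not tested. Irx1, an Iroquois homeobox gene on the thalamic and midline list, had 1.67 and 1.21 in SmoM2, against 0.62 and 0.82 in WT, and did not pass; of that list 6 of 20 genes had a row, Six3 rose and Prox1 fell.

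Otx2, a homeobox factor of choroid plexus and of the posterior forebrain, had the most negative fold change of the 61 without passing. Its levels were 0.25 and 0.90 in SmoM2, against 1.93 and 2.46 in WT, with a log2 difference of -1.05 ± 0.30 (SE) and adjusted p = 0.123 according to the authors' deposited table. The SmoM2 samples differed from each other 3.60-fold. Of 10 choroid plexus markers, 8 had a row. All 8 were lower in SmoM2, and 7 of them fell. Their summed level was 152.9 and 726.9 in SmoM2, against 1369 and 1403 in WT, with SmoM2 replicate 1 lowest as for Otx2. Ttr, the transthyretin gene, contributed most, with 71.24 and 618.04 in SmoM2, against 1202.66 and 1162.48 in WT. The part of choroid plexus in the level of Otx2 was not tested. On the list of choroid plexus and ependymal factors 3 of 9 genes had a row, and Six3 and Rfx2 rose.

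**Figure D3:**
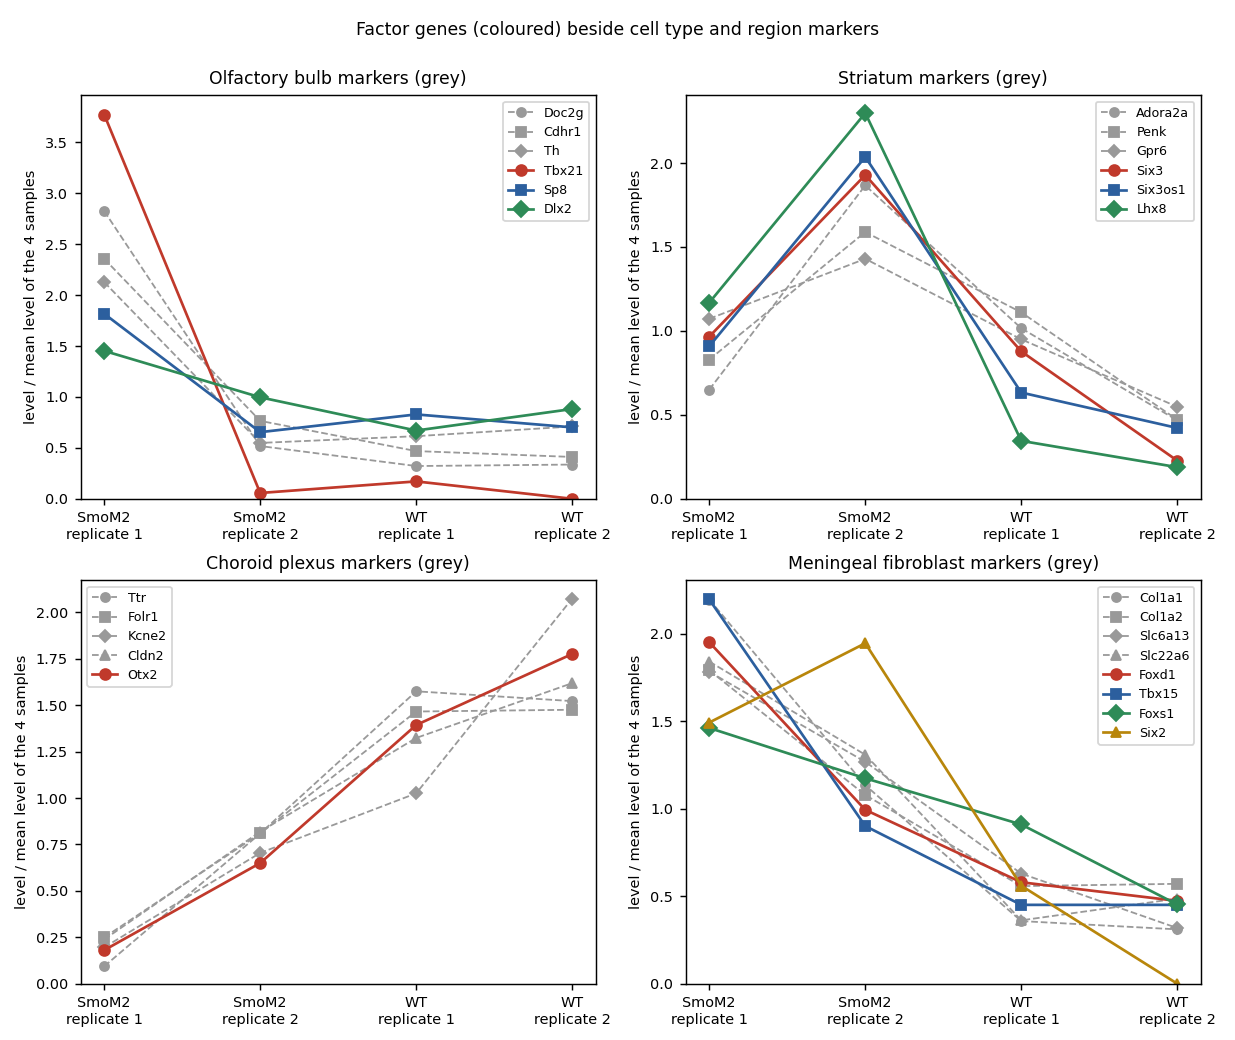
Level of each gene in a sample divided by its mean level over the 4 samples (y axis) for factor genes (solid, coloured) and markers (dashed, grey); dashed and solid lines only join the values of 1 gene. Tbx21 and Sp8 peak in SmoM2 replicate 1 with Doc2g, Six3 and Lhx8 in SmoM2 replicate 2 with Adora2a, and Otx2 is lowest in SmoM2 replicate 1 with Ttr.

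Of the noncoding transcripts, Six3os1 and Sox1ot had the direction of their neighbours, and Sox2ot, which did not pass, had the opposite one. Six3os1, transcribed from the strand opposite to Six3, had levels of 1.12 and 2.51 in SmoM2, against 0.78 and 0.52 in WT, the same order of samples as Six3, and did not pass. RefSeq places the starts of these 2 genes 2438 bases apart on chromosome 17, pointing away from each other, while GENCODE M21 also has Six3 transcripts that overlap Six3os1 over 4791 bases. No source used here says whether reads were counted by strand, so reads of Six3 and Six3os1 may not be fully told apart. The 250 bases before each start are shown because the pair had the same order of samples, and neither holds the 7-base GLI core.
Six3, chr17:85620584-85620833, plus strand: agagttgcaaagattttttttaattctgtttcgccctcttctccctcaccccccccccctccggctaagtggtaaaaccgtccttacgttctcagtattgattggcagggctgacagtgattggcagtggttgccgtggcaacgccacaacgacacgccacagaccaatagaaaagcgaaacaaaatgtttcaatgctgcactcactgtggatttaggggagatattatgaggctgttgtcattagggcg
Six3os1, chr17:85618397-85618646, minus strand: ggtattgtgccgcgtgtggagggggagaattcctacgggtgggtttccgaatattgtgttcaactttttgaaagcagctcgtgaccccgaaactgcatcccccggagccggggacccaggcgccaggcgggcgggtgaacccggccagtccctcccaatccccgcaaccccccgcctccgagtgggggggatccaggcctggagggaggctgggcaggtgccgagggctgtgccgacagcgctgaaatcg
Six2, the next gene of this cluster and a factor of mesenchyme, lies 55 kb beyond Six3 and had levels of 0.56 and 0.73 in SmoM2, 0.21 in WT replicate 1, and was listed at 0 in WT replicate 2. Sox2 and Sox2ot, whose gene model spans Sox2 on the same strand, differed in direction, and neither passed. The authors' deposited table has adjusted p = 0.498 for Sox2 and 0.424 for Sox2ot. How reads of Sox2 and Sox2ot were told apart is not stated either. Sox2ot had 12.01 and 10.80 in SmoM2, against 13.55 and 13.97 in WT, and the level of Sox2 divided by that of Sox2ot was 3.05 and 3.08 in SmoM2, against 2.02 and 2.05 in WT. Sox1 and Sox1ot were both higher without passing, with a ratio of 2.04 and 1.69 in SmoM2, against 1.96 and 1.79 in WT. Emx2os, antisense to the cortical patterning gene Emx2, rose, with 1.71 and 1.19 in SmoM2, against 0.25 and 0.90 in WT. Its log2 difference went from 0.66 to 0.36 without WT replicate 1. 25 of the 61 genes are overlapped by an annotated gene on the other strand, among them Pbx3, Foxp4, Cux2, Prox1, Nfib, Meis1, Sox4, Sp9, Six3 and Emx2os, which changed.

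Nkx6-1 and Ebf3 were among the 10 genes with a mean level below 1. Nkx6-1, a homeobox factor of ventral neural progenitors, had levels of 0.22 and 0.17 in SmoM2, and was listed at 0 in WT replicate 1 and at 0.03 in WT replicate 2. Ebf3, a helix-loop-helix factor of early-born neurons and of meninges, had 0.64 and 0.56 in SmoM2, against 0.20 and 0.31 in WT. Neither passed, and the authors' deposited table has adjusted p = 0.315 for Nkx6-1 and 0.307 for Ebf3. Across the whole group SmoM2 replicate 1 was the highest sample for 35 of the 50 genes that were higher in SmoM2, and SmoM2 replicate 2 for 15. 5 genes were at least 2 times higher in SmoM2 replicate 1 than in SmoM2 replicate 2 (Tbx21, Foxd2, Sp8, Tbx15 and Tbx1), and 2 were at least 2 times higher in SmoM2 replicate 2 (Otx2 and Six3os1). Of the 25 genes that changed, 23 kept the sign of their log2 difference with any one library left out, the exceptions being Tbx21 and Sp8. A gene whose groups do not overlap cannot reverse in this way. Among the 25 only Sp8, Foxp1 and Tbx21 had overlapping groups, so the count of signs kept says little about stability. 13 of the 25 kept their sign and also stayed within 1.5 times of their value.

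**Figure D4:**
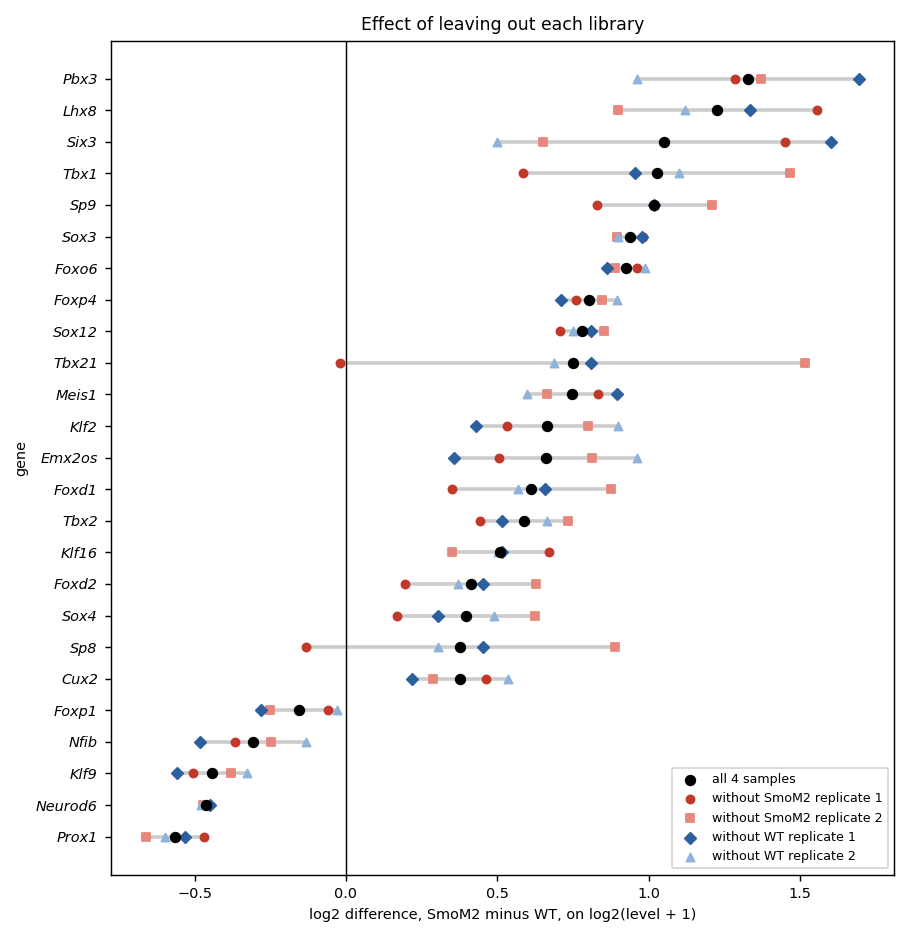
Log2 difference of SmoM2 minus WT on the log2(level + 1) scale (x axis) for the 25 genes that changed (y axis), with all 4 samples (black) and with each library left out (colours); grey bars span the 4 left-out values. Neurod6, Sox3, Foxo6 and Sox12 move little, and Tbx21 and Sp8 reach -0.02 and -0.13 without SmoM2 replicate 1.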

How the data were processed

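RNA-seq was done on 4 samples of pooled corpus callosum and cortex, 2 per group, from 1 ug of total RNA using TruSeq libraries, per the labels' protocols. RSEM and DESeq2 are tools named per the submitters' processing notes, with GRCm38.p6 as the build; no roles are given. The levels are a signal that the authors deposited per sample, with values that look corrected for length and depth; TPM or FPKM is not stated. The authors deposited the fold change of SmoM2 over WT as a linear ratio, per the file headers. The log2 values were deposited by the authors as the logarithm of that ratio. The p-value of each gene was computed and deposited by the authors, with an adjusted one. The authors' adjusted p equals p times 57010 over its rank for 5273 of 5282 genes, within 1e-06. Depth is unknown, since no counts are given; levels summed to between 469062 and 512833 per sample over the listed genes. Columns were tied to samples by the pairing in the series text.

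limma 3.58.1 (R 4.3.3) was fitted with a mean-variance trend on log2(level + 1) for genes averaging at least 1 over the 4 samples, with p adjusted over 57010 tests, and the script was tested on simulated data. The planned count-based test was not used, because the table holds levels of selected genes. Coordinates come from GENCODE M21 (GRCm38), in which all 61 genes were found. The genes and lists were chosen with earlier results of these data known. Levels in each sample are given for genes that changed and for the most abundant member of each list; those of other genes, and the searched motifs, were chosen after the values were seen. List members with no row could not be counted. Some genes that enter the counts are not reported here by name.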

Additional observations from a re-analysis of the deposited data

How the results depend on the processing

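Of the 20 genes that rose by the authors' deposited table, 12 remained at a threshold of 0.01 on adjusted p, and 10 if the log2 fold change also had to reach 1 in size. For the 5 that fell these counts were 4 and 0. Requiring that groups not overlap left 18 and 4. Chosen after the data were seen, leaving out the 4 noncoding transcripts gave 19 and 5. Requiring SmoM2 replicate 2 alone to lie outside both WT samples gave 18 and 4. These last counts could not be lower, since every gene whose groups do not overlap meets that rule. limma passed 0 of the genes under the 11 alternatives, but 5 of these passed 0 genes of the whole table (no filter, quantile normalization, and without SmoM2 replicate 1, SmoM2 replicate 2 or WT replicate 2), so the zeros say nothing about stability. With a library left out, 1 arm has 1 sample, assumed to vary like the other arm. At an unadjusted p under 0.05 the share was 33.3% to 71.0% of the genes fitted, against 30.7% to 58.0% of all genes. The median log2 difference was 0.44 and went to 0.28 with a pseudocount of 5; by the alternative's construction a larger pseudocount lowers differences of low genes. It ran from 0.39 to 0.57 with a library left out. Of 541 single-gene values recomputed for 51 genes, 1 reversed, namely Sp8 (0.38). It was -0.13 without SmoM2 replicate 1, against 0.89 without SmoM2 replicate 2, and the cause was not tested. A left-out library could not reverse a gene whose groups do not overlap. The labels' replicate numbers are not stated to pair samples, and deviations of same-numbered samples had a correlation of -0.0934 across genes. With the replicate block 0 of the 51 genes passed and the median stayed at 0.44, while all genes passing went from 6 to 20. Without counts, the precision of genes with a mean level below 1 cannot be given.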
